A study of Mus musculus with 8 samples.

Results

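The regions described here belong to homeobox genes that lie outside the Hox clusters. They were chosen by name, as the array probes whose gene name begins with Nkx, Lhx, Dlx, Meis, Pitx, Otx, Emx, Msx, Evx, Gbx, Barhl, Alx or Vax followed by a number, or with the symbol of the sine oculis family and a number. The rule took 1033 of 88737 probes under 65 names, of which 57 are homeobox genes and 8 are antisense or opposite-strand transcripts of the same loci. Probes whose starts lay up to 500 bp apart were joined, and regions with 3 or more probes were kept. This gave 137 member regions of 13183 in all, on 14 chromosomes, for 55 homeobox genes and 7 antisense or opposite-strand names, with 897 member probes in them. Dlx1, Vax2 and Emx2os, with 12 probes together, had no region of that size.

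Homeobox genes encode transcription factors that bind DNA through a homeodomain and set the identity of cells and body parts in the embryo. Many are silent in embryonic stem (ES) cells and in most adult tissues, where their CpG-rich promoters are typically kept unmethylated and carry Polycomb marks. Evx1 and Evx2 are neighbours of Hox clusters, and Meis proteins bind DNA together with Hox proteins.

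Methylated DNA was measured by mDIP, in which an antibody against 5-methylcytidine pulls methylated fragments out of sonicated, denatured DNA. Bound DNA (Cy5) and input DNA (Cy3) of each sample were hybridised together to a mouse CpG island array. The 8 groups hold 1 array each. They were liver of aid-/- mice, liver of mbd4-/- mice, spleen of aid-/- mice, spleen of mbd4-/- mice, ES cells that were aid-/-, ES cells that were mbd4-/-, ES cells with a Gadd45a knock down, and wild-type (wt) ES cells. All 4 tissue samples came from C57BL6/J mice aged 6 months, and aid-/- and mbd4-/- tissue DNA came from different source laboratories. Wild-type tissue was not part of the analysis. MBD4 is a glycosylase that removes thymine and uracil opposite guanine, and GADD45A is a DNA damage response protein. The series asked about a demethylation pathway at CpG islands in ES cells.

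The level of a region is the mean over its probes of log2 bound over input, minus the median of its array. It ranks regions within an array and is no methylation percentage. The plateau, the 98th percentile of regions outside the X and Y chromosomes and the mitochondrial genome, differed between arrays. It was 2.25 and 3.98 in aid-/- and mbd4-/- liver, 2.28 and 3.63 in aid-/- and mbd4-/- spleen, and 4.46, 4.26, 2.74 and 3.35 in ES aid-/-, mbd4-/-, Gadd45a knock down and wild type. The bound signal was well above background at 69.0% of member probes on the ES aid-/- array and at 86.0% to 94.4% on the other 7. The 1393 probes under 40% GC had a median level of 0.02 on the ES aid-/- array, against −0.27 to −1.53 on the other 7. The 2 probes of Mbd4 and 7 of Gadd45a measure DNA around those genes, so the alterations themselves could not be checked here. DNA arrays hold no expression, so the tissues could not be checked by marker genes in the usual way. There were 28 regions at marker genes of ES cells (10), liver (5), spleen and blood (4), fibroblasts (6) and endothelium (3). Of these, none was higher and 2 were lower on every liver and spleen array than on every ES array. Of all regions 7.77% were higher and 4.01% lower in this way.

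A few member regions carry most of the results below, and their probes are shown because the level of a region rests on them. The probes are the array's own, in mm9 order, with each CG dinucleotide, the target of CpG methylation, in capitals. Dlx3 region 1 lies at chr11:94979430-94979907, Nkx2-5 region 3 at chr17:26981132-26981837 and Meis2 region 3 at chr2:115887946-115888259.
Dlx3 region 1 probe 1: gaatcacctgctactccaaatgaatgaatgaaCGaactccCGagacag
Dlx3 region 1 probe 2: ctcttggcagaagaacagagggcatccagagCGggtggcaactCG
Dlx3 region 1 probe 3: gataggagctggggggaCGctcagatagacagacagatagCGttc
Dlx3 region 1 probe 4: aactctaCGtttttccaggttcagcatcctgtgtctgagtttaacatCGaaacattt
Nkx2-5 region 3 probe 1: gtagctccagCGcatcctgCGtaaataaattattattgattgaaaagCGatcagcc
Nkx2-5 region 3 probe 2: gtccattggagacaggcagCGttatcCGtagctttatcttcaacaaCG
Nkx2-5 region 3 probe 3: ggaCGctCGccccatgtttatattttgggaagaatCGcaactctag
Nkx2-5 region 3 probe 4: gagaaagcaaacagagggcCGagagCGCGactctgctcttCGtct
Nkx2-5 region 3 probe 5: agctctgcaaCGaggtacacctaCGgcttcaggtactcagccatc
Nkx2-5 region 3 probe 6: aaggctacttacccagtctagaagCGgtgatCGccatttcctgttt
Meis2 region 3 probe 1: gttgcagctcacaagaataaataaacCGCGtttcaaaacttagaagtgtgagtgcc
Meis2 region 3 probe 2: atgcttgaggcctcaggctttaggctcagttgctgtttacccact
Meis2 region 3 probe 3: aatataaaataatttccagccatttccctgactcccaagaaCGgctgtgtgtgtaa
The 4 Dlx3 probes hold 2 CG each, the 6 Nkx2-5 probes 2 to 4, and the 3 Meis2 probes 2, 0 and 1. A probe without a CG can still report on methylation nearby, because sonicated fragments of 300 to 1000 bp reach beyond it.

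Member regions were rarely strongly bound. In aid-/- and mbd4-/- liver, 3 and 2 of 137 reached 50% of their array's plateau, against 9.22% and 8.62% of all regions. In aid-/- and mbd4-/- spleen the counts were 2 and 1, against 9.79% and 10.5% of all regions. In ES aid-/-, mbd4-/-, Gadd45a knock down and wild type they were 4, 2, 2 and 3, against 8%, 8.29%, 7.34% and 6.18%. One member stood at or above 50% on all 8 arrays, 7 did so on 1 to 7 arrays and 129 on none, where 3.64% of all regions did so on all 8 and 83.7% on none. Member medians lay between −0.26 (mbd4-/- liver) and 0.05 (ES aid-/-), beside medians of all regions between −0.17 (ES aid-/- and mbd4-/-) and 0.00 (Gadd45a knock down).

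**Figure D1:**
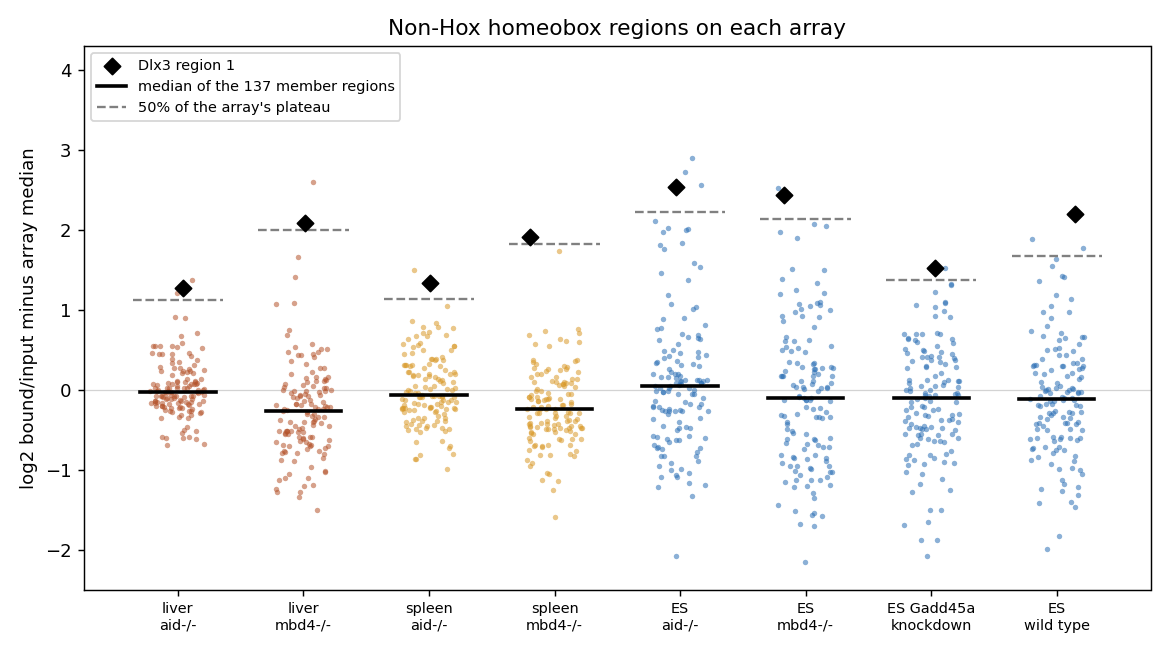
Level of each of the 137 member regions (log2 bound over input minus array median, vertical axis) on the 8 arrays; horizontal bars are medians, dashed lines mark 50% of each array's plateau and diamonds mark Dlx3 region 1. The member medians run from −0.26 to 0.05, and Dlx3 region 1 is the only member above the dashed line on all 8 arrays.

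The exception was Dlx3, a distal-less gene needed for skin and placenta. Dlx3 region 1 had levels of 1.28 and 2.08 in aid-/- and mbd4-/- liver, 1.34 and 1.91 in aid-/- and mbd4-/- spleen, and 2.54, 2.43, 1.52 and 2.20 in ES aid-/-, mbd4-/-, Gadd45a knock down and wild type. As a share of each array's plateau it ran from 52.3% (mbd4-/- liver) to 65.8% (ES wild type). With normexp background correction no member reached 50% on the ES mbd4-/- or mbd4-/- spleen array, so Dlx3 region 1 fell below it there. Dlx3 region 2, which lies further along the chromosome and holds 12 probes, stayed between 0.16 and 0.66 on all 8 arrays. Each of the 4 probes of Dlx3 region 1 had a mean above 0, from 0.76 to 2.41 in liver and spleen and from 1.05 to 3.11 in ES cells.

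After Dlx3 region 1, high mean shares of the plateau over the 8 arrays were 31.6% at Msx1 region 1, 30.8% at Barhl1 region 3, 29.8% at Nkx2-5 region 2, 24.4% at Gbx2 region 2, 22.3% at Lhx1 region 1, 21.9% at Nkx2-5 region 3, 21.2% at Vax1 region 3 and 20.7% at Barhl1 region 1. Msx1 acts in the developing head and limbs, Barhl1 in neurons of the hindbrain and inner ear, Gbx2 at the border of midbrain and hindbrain, Lhx1 in the early head and kidney, and Vax1 in the optic stalk. Among the lowest were Dlx4 region 2 (−38.8%), Lhx4 region 2 (−36.7%), Evx2 region 2 (−33.3%) and Lhx5 region 1 (−26.6%). On the ES aid-/- array no bound probe of Evx2 region 2 was well above background.

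By family, the median over liver and spleen was lowest for Emx (−0.65, 5 regions, range −0.83 to 0.19), genes of the cerebral cortex, and for Evx (−0.38, 5 regions, −0.89 to 0.20). It was highest for Barhl (0.18, 6 regions, −0.48 to 0.61). In ES cells the family medians were highest for Barhl (0.75, range −0.59 to 1.57) and Dlx (0.33, 11 regions, −1.58 to 2.17), and lowest for Evx (−0.49, −1.35 to −0.02), Pitx (−0.48, 11 regions, −1.33 to 0.76) and Otx (−0.44, 7 regions, −1.02 to 0.38). Pitx genes act in the pituitary, and Otx genes in the forming head. The 24 Nkx regions had medians of −0.08 in liver and spleen and 0.10 in ES cells, and the 21 Lhx regions, of LIM-homeodomain factors, −0.01 and −0.03. For the 18 regions of the sine oculis family, genes for eye, muscle and kidney, the medians were −0.15 and −0.05. Within most families single regions ranged far more widely than the family medians differed.

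**Figure D2:**
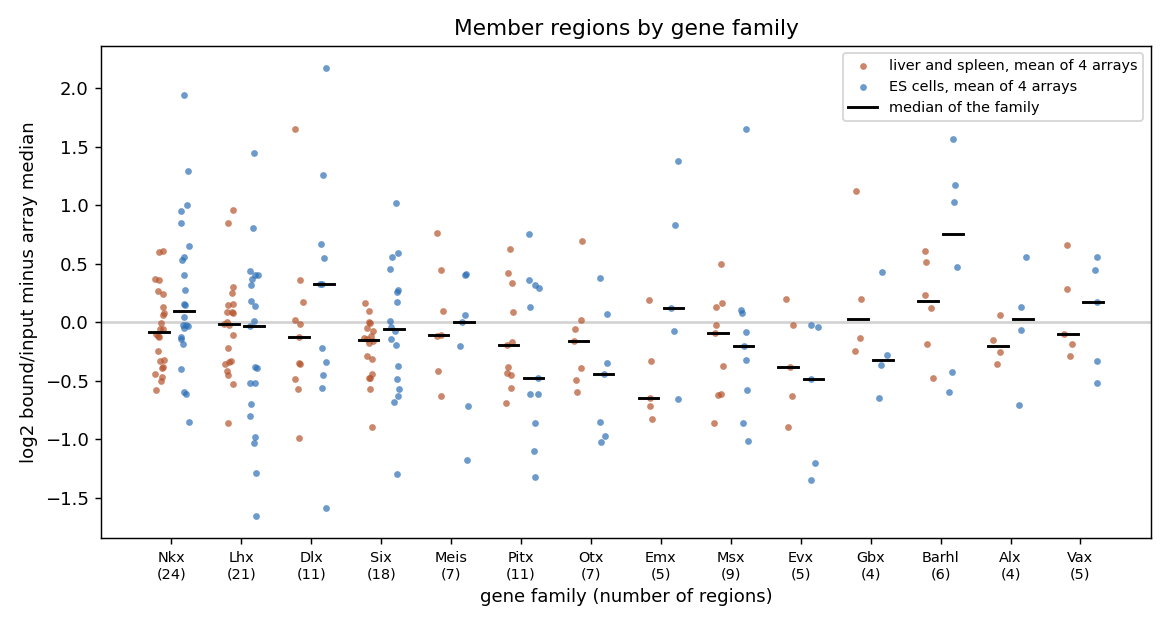
Mean level of each member region over the 4 liver and spleen arrays and over the 4 ES arrays (vertical axis, log2 bound over input minus array median) by gene family, with the family median as a bar and the number of regions below each name. Barhl has the highest ES median (0.75) and Emx the lowest liver and spleen median (−0.65).

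Of the 55 homeobox genes and 7 other names, 28 had a region with a probe inside the gene's RefSeq promoter window (250 bases before to 50 after a start, GRCm38.p6). Median levels of these 28 promoter regions were −0.08 and −0.38 in aid-/- and mbd4-/- liver, against −0.002 and −0.24 for the other 42 regions of the same genes. In aid-/- and mbd4-/- spleen they were −0.09 and −0.28, against 0.07 and −0.24. In ES aid-/-, mbd4-/- and wild type they were −0.10, −0.26 and −0.24, against 0.16, −0.01 and −0.05. The Gadd45a knock down array ran the other way, with −0.05 at promoter regions and −0.18 at the others. Over the member regions, level and probe GC were most correlated on that array (Spearman rho 0.48). On the other arrays rho ran from −0.08 (ES aid-/-) to 0.41 (mbd4-/- spleen), and its part here was not tested. None of the 28 promoter regions reached 50% of the plateau on any array except Nkx2-5 region 2, on the Gadd45a knock down array (55.7%).

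Liver and spleen were set against ES cells with limma over all 8 arrays, in which arrays of different genotype stand in as replicates, so that the spread includes any genotype effect. No member region passed an adjusted p of 0.05, higher or lower, against 0.174% and 0.0683% of all regions. At an unadjusted p under 0.05, 7 members were higher and 16 lower, 5.11% and 11.7% of the members, where 10.1% and 5.79% of all regions were. In 14 members every liver and spleen array was lower than every ES array, and in 4 every one was higher, against 4.01% and 7.77% of all regions. The members thus lay above the background for lower levels and below it for higher ones, with no call for any single region. Regions named below for this comparison were chosen after their values were seen.

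Nkx2-5, a factor of the early heart, held the widest gap. Nkx2-5 region 3 had levels of −0.06 and −0.54 in aid-/- and mbd4-/- liver, 0.08 and −0.45 in aid-/- and mbd4-/- spleen, and 2.72, 2.53, 0.64 and 1.89 in ES aid-/-, mbd4-/-, Gadd45a knock down and wild type. All 4 tissue arrays lay below all 4 ES arrays, and 3 ES arrays stood at 56.5% to 61.0% of their plateau while the knock down stood at 23.3%. The means were −0.24 ± 0.30 in liver and spleen and 1.94 ± 0.94 in ES cells (SD, n = 4 each), a difference of −2.18 ± 0.44 (SE, limma adjusted p = 0.0853). Each of the 6 probes printed above had a lower mean in liver and spleen (−0.49 to −0.06) than in ES cells (1.09 to 2.51).

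The other regions of the gene had smaller differences, and whether these differ from region 3 was not tested. Nkx2-5 region 2, which holds the promoter probe, averaged 0.60 ± 0.24 in liver and spleen and 1.29 ± 0.18 in ES cells (SD, n = 4 each; difference −0.69, adjusted p = 0.17 by limma). Region 1, 1.2 kb downstream of it, averaged −0.06 ± 0.13 in liver and spleen and 0.53 ± 0.18 in ES cells (SD, n = 4 each; difference −0.59, adjusted p = 0.19 by limma). In both regions the tissue and ES arrays did not overlap. Region 3 begins 2.6 kb upstream of region 2, and region 4, 8.1 kb upstream of region 2, overlapped between the groups, with means of −0.39 in liver and spleen and −0.61 in ES cells.

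**Figure D3:**
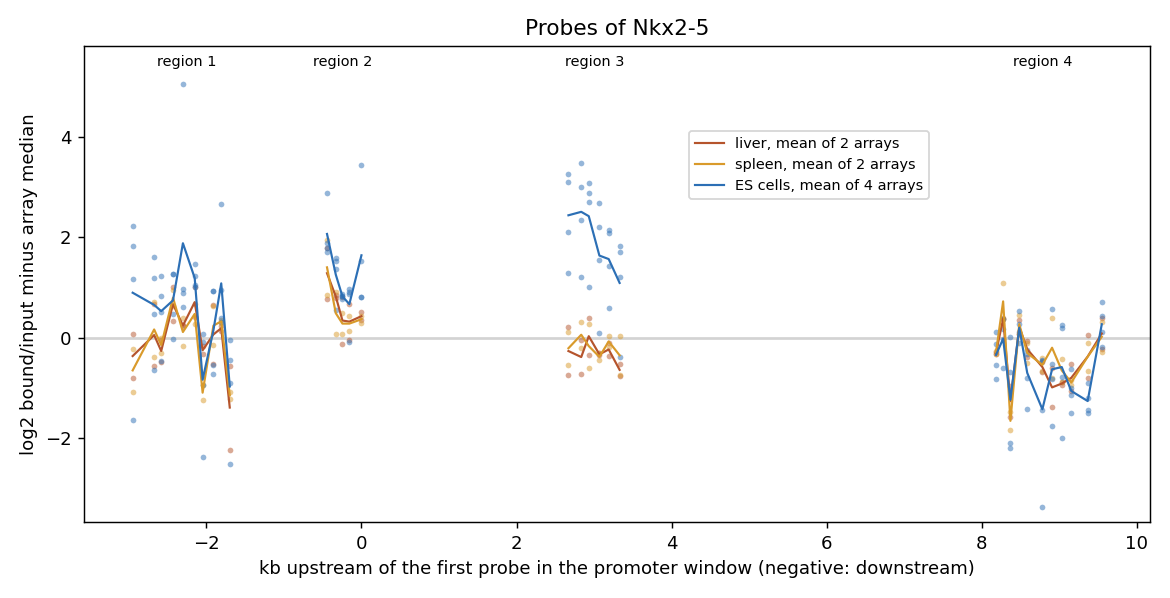
Level of each Nkx2-5 probe (vertical axis, log2 bound over input minus array median) by distance in kb from the first probe in the promoter window, upstream to the right; points are arrays and lines are means over 2 liver, 2 spleen and 4 ES arrays. In region 3 all 6 ES means (1.09 to 2.51) lie above the liver and spleen means, and in region 4 the lines overlap.

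Lhx3, a LIM-homeodomain gene of the pituitary and motor neurons, had a promoter region among the 14. The 300-base RefSeq window of the start that carries a probe of Lhx3 region 2 (GRCm38.p6, chr2:26206526-26206825, minus strand) is shown because it places the region at the gene's start; each CG is in capitals.
Lhx3 promoter window: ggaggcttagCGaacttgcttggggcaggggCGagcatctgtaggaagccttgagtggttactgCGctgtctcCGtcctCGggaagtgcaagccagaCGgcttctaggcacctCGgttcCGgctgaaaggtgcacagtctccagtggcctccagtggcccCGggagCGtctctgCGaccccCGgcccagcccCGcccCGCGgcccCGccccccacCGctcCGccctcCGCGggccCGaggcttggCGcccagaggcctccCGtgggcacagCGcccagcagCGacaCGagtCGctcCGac
It holds 28 CG, searched as the letters CG, which read the same on both strands. At least 28 were found in 14.2% of all 32851 RefSeq promoter windows and at least 1 in 94.6%.

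Lhx3 region 2 had levels of 0.03 and 0.06 in aid-/- and mbd4-/- liver, 0.22 and 0.05 in aid-/- and mbd4-/- spleen, and 2.02, 2.05, 0.37 and 1.36 in ES aid-/-, mbd4-/-, Gadd45a knock down and wild type. The 4 tissue arrays lay close together near 0 and below all ES arrays. The difference was −1.36 ± 0.37 (SE, limma adjusted p = 0.154). Vax1 region 2, the only other promoter region among the 14, differed by −0.36 without overlap, besides Nkx2-5 region 2.

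Emx2, a gene of cortex and urogenital development, had its gap downstream of the promoter. Emx2 region 3, 8.9 kb downstream of the promoter region, had levels of −0.61 and −1.098 in aid-/- and mbd4-/- liver, −0.48 and −1.12 in aid-/- and mbd4-/- spleen, and 2.00, 0.86, −0.14 and 0.62 in ES aid-/-, mbd4-/-, Gadd45a knock down and wild type. The groups did not overlap (difference −1.66 ± 0.43, SE, limma adjusted p = 0.138). Emx2 region 2, 7.3 kb downstream, had −0.29 in aid-/- liver and −1.104 in mbd4-/- liver, −0.38 and −0.81 in aid-/- and mbd4-/- spleen, and 2.90, 1.39, −0.55 and 1.78 in ES aid-/-, mbd4-/-, Gadd45a knock down and wild type. There the knock down array fell among the tissue arrays, and the range of 3.44 over the 4 ES arrays was the widest of any member. Probes of regions 2 and 3 held 46.0% and 48.3% GC, and low-GC probes stood high on the ES aid-/- array. With GC correction aid-/- minus wild-type ES cells went from 1.12 to 0.47 in region 2 and from 1.38 to 0.92 in region 3. In region 2 the knock down minus wild type went from −2.33 to −1.97. The promoter region itself stayed between −0.52 and 0.04 on all 8 arrays.

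Other members without overlap and lower in liver and spleen were Dlx4 region 1 (difference −1.39), Msx1 region 1 (−1.15), Barhl1 region 2 (−0.91), Nkx2-6 region 1 (−0.88), Six2 region 1 (−0.56), Pitx1 region 4 (−0.555) and Nkx2-1 region 1 (−0.32). Of the 14, 6 belong to Nkx genes, the largest family with 24 of the 137 member regions. Nkx2-5 regions 1, 2 and 3 are among these 6. At Barhl1 region 2 the mean was 0.12 ± 0.15 in liver and spleen and 1.03 ± 0.02 in ES cells (SD, n = 4 each), with the 4 ES arrays close together. Adjusted p over the 14 ran from 0.0715 to 0.414 by limma.

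Lhx6, a gene of cortical interneurons and the jaw, was among the 4 members that were higher. Lhx6 region 1, 11.7 kb downstream of the promoter region, had levels of 0.39 and 1.08 in aid-/- and mbd4-/- liver, −0.27 and 0.01 in aid-/- and mbd4-/- spleen, and −1.06, −1.44, −1.02 and −0.61 in ES aid-/-, mbd4-/-, Gadd45a knock down and wild type. All 4 tissue arrays lay above all ES arrays (difference 1.34 ± 0.25, SE, limma adjusted p = 0.0715). Lhx6 region 3, its promoter region, differed by 0.47, Pitx1 region 3 by 0.43 and Nkx6-2 region 1 by 0.37, with adjusted p up to 0.454 by limma.

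**Figure D4:**
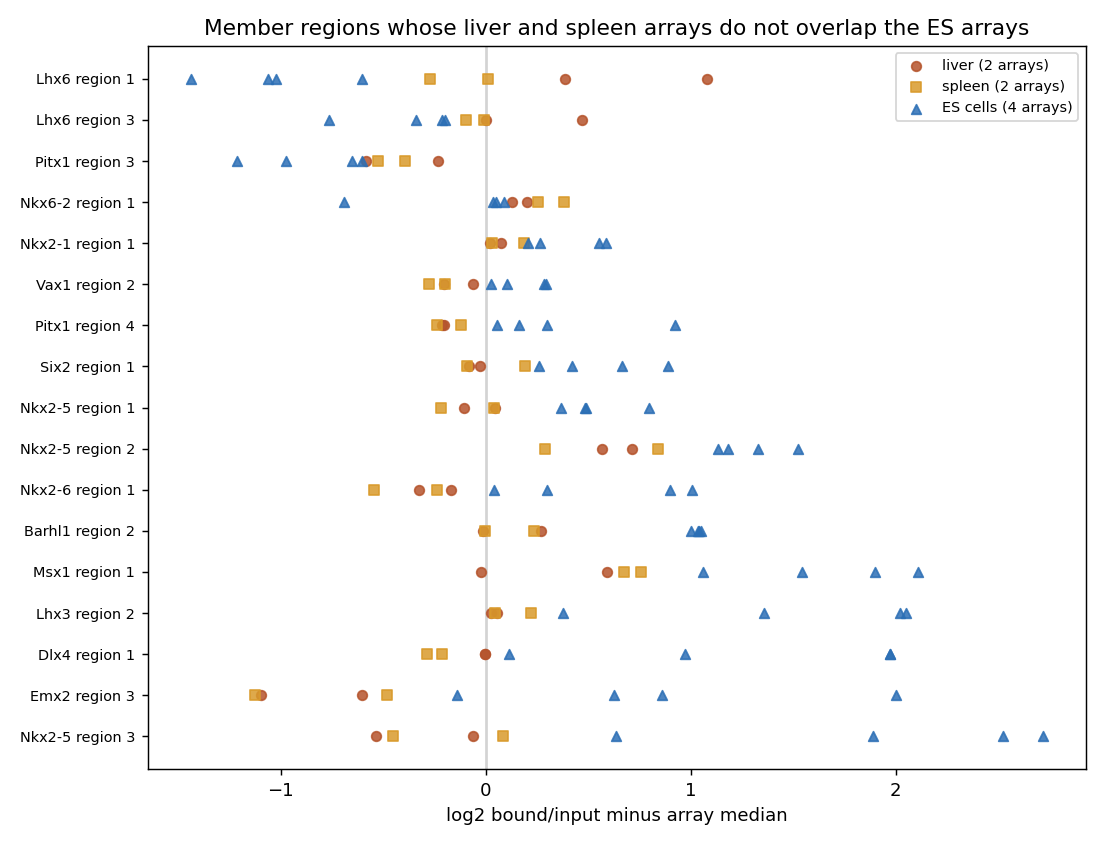
Levels (horizontal axis, log2 bound over input minus array median) in 17 of the 18 member regions whose 4 liver and spleen arrays do not overlap the 4 ES arrays, ordered by the difference; each symbol is 1 array. In 4 of them liver and spleen are higher and in 13 lower, down to a difference of −2.18 at Nkx2-5 region 3.

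The number of members called moved with several settings. Without the Gadd45a knock down array, limma called 1 member higher and 7 lower, against 0.493% and 0.827% of all regions: Meis2 region 3 was higher, and Nkx2-5 region 3, Emx2 region 2, Nkx6-2 region 2, Dlx4 region 1, Lhx3 region 2, Msx1 region 1 and Barhl1 region 3 were lower. With the aid-/- and mbd4-/- arrays alone and genotype as a block, an alternative chosen after seeing the data, 3 were higher and 15 lower, against 3.92% and 4.95% of all regions. The 3 higher ones there were Meis2 region 3, Lhx6 region 1 and Gbx2 region 3. With every array brought to the same plateau, limma called 2 members higher and 2 lower, against 2.56% and 0.485% of all regions. With the deposited values 1 was higher and 2 lower, against 3.49% and 0.398%, and after GC correction 0 and 1, against 0.273% and 0.159%. Nkx2-5 region 3 was among the lower calls in each of these 5 alternatives, the only ones run that called a member. The others called none, among them scan day, Agilent Feature Extraction software version or slide as a block, and normexp background correction. Over all 22 settings the difference at Nkx2-5 region 3 ran from −2.86 to −1.20. Its adjusted p ran from 0.0066 to 0.299 by limma.

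Meis2, a Hox cofactor, had the member region with the smallest limma p in this comparison. Meis2 region 3 had levels of 1.37 and 2.60 in aid-/- and mbd4-/- liver, −0.05 and −0.87 in aid-/- and mbd4-/- spleen, and −1.09, −1.68, −0.80 and −1.13 in ES aid-/-, mbd4-/-, Gadd45a knock down and wild type. The liver arrays stood at 60.9% and 65.2% of their plateau and apart from all others, while the mbd4-/- spleen array fell among the ES arrays. Liver and spleen minus ES was 1.94 ± 0.34 (SE, limma adjusted p = 0.0641), a mean of unlike tissues. Liver minus spleen was 2.45, with an adjusted p of 1.00 by limma. Each of the 3 probes printed above, the one with no CG included, averaged 1.59 to 2.30 in liver and −0.86 to 0.10 in spleen.

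Liver against spleen gave no call for any region, member or not. At an unadjusted p under 0.05 by limma, 2 members were higher in liver (Meis2 region 3, and Lhx6 region 1 by 0.86) and 1 lower (Gbx2 region 2, by −0.98), against 0.766% and 0.781% of all regions. Gbx2 region 2 had levels of 0.52 and 0.74 in aid-/- and mbd4-/- liver and of 1.49 and 1.74 in aid-/- and mbd4-/- spleen, with ES levels from −0.32 to 0.81.

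Each altered ES line was set against wild type on 1 array each, which allows no test. A region was listed when its level differed by 1 or more on the log2 scale and 75% or more of its probes went the same way. The 3 comparisons share the wild-type array. It and the aid-/- array were scanned on day 1, the mbd4-/- array on day 3 and the knock down array on day 4. The signals of the mbd4-/- and knock down arrays were also processed with a different version of the Agilent Feature Extraction software. For these lines scan day and Feature Extraction version cannot be told apart from the line. The ES arrays all lay on different slides, so slide cannot be told apart from the line either, aid-/- included. In ES aid-/- cells 11 members were higher and 0 lower, against 8.7% and 2.21% of all regions. In ES mbd4-/- cells 7 were higher and 3 lower, against 7.64% and 2.59%. In the Gadd45a knock down 3 were higher and 8 lower, against 6.46% in each direction. Just inside the rule lay Nkx6-3 region 1 (1.01 in the knock down) and just outside it Dlx4 region 1 (0.997 in aid-/-), while Nkx2-3 region 1 (−1.03 in aid-/-) failed on its probes.

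Regions of Meis2 and Lhx6 were listed as higher in both aid-/- and mbd4-/- ES cells. Lhx6 region 2 had levels of 1.76 ± 0.38 in aid-/-, 1.25 ± 0.24 in mbd4-/-, −1.25 ± 0.88 in the knock down and −0.26 ± 0.33 in wild-type cells (SD over 4 probes). Meis2 region 1 had 1.07 ± 0.50 in aid-/-, 0.52 ± 0.33 in mbd4-/-, −0.85 ± 0.64 in the knock down and −0.72 ± 0.82 in wild-type cells (SD over 4 probes). The SD over probes is spread within 1 array and no replicate error. Meis2 region 2 was listed in both lines as well (1.06 in aid-/- and 1.55 in mbd4-/-).

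In aid-/- cells other listed regions were Otx2 region 1 (difference 1.44), Emx2 region 3 (1.38), Six2 region 3 (1.37), Six5 region 1 (1.36), Alx4 region 2 (1.2025) and Emx2 region 2 (1.12). Of the 11, 10 lay below the median GC of member probes, and 3 remained listed after correction for probe GC, among them Lhx6 region 2 (1.72) and Meis2 region 1 (1.37). Probes of low GC stood higher on the aid-/- array than on the wild-type array (medians of 0.02 and −1.19), and the part of this in the other 8 was not tested.

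In mbd4-/- cells Six3os1 region 3, beside the eye and forebrain gene Six3, differed most, by 1.94, with levels of 0.08, 1.098, −0.48 and −0.84 in ES aid-/-, mbd4-/-, knock down and wild type. Only 1 of its 3 bound probes was well above background on the wild-type array. Meis1 region 3 (1.42) and Six3os1 region 1 (1.19) were also higher, and all 7 higher regions remained listed after GC correction. The 3 lower were Dlx5 region 1 (−1.53), Vax1 region 1 (−1.11) and Nkx3-2 region 1 (−1.06), of which the first and the second remained. Dlx5 region 1, at a gene for jaw and bone, had levels of 1.37, −0.11, −0.02 and 1.42 in ES aid-/-, mbd4-/-, knock down and wild type.

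In the Gadd45a knock down the lower regions were Emx2 region 2 (−2.33), Six2 region 3 (−2.05), Nkx2-5 region 3 (−1.25), Lhx5 region 3 (−1.16), Emx1 region 2 (−1.102), Lhx3 region 1 (−1.096), Barhl1 region 3 (−1.08) and Gbx2 region 2 (−1.02). Six2 region 3, at a gene of kidney progenitors, had levels of 2.56 ± 0.265, 1.21 ± 0.38, −0.87 ± 1.07 and 1.19 ± 0.27 in ES aid-/-, mbd4-/-, knock down and wild type (SD over 8 probes). Meis1 region 3 (1.58) and Nkx6-3 region 1 (1.01) were among the higher ones. After GC correction 4 of the 8 lower regions and 1 of the 3 higher ones remained listed. Some that left the list kept much of their size, with Meis1 region 3 at 1.37, failing on its probes, and Nkx2-5 region 3 at −0.90.

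**Figure D5:**
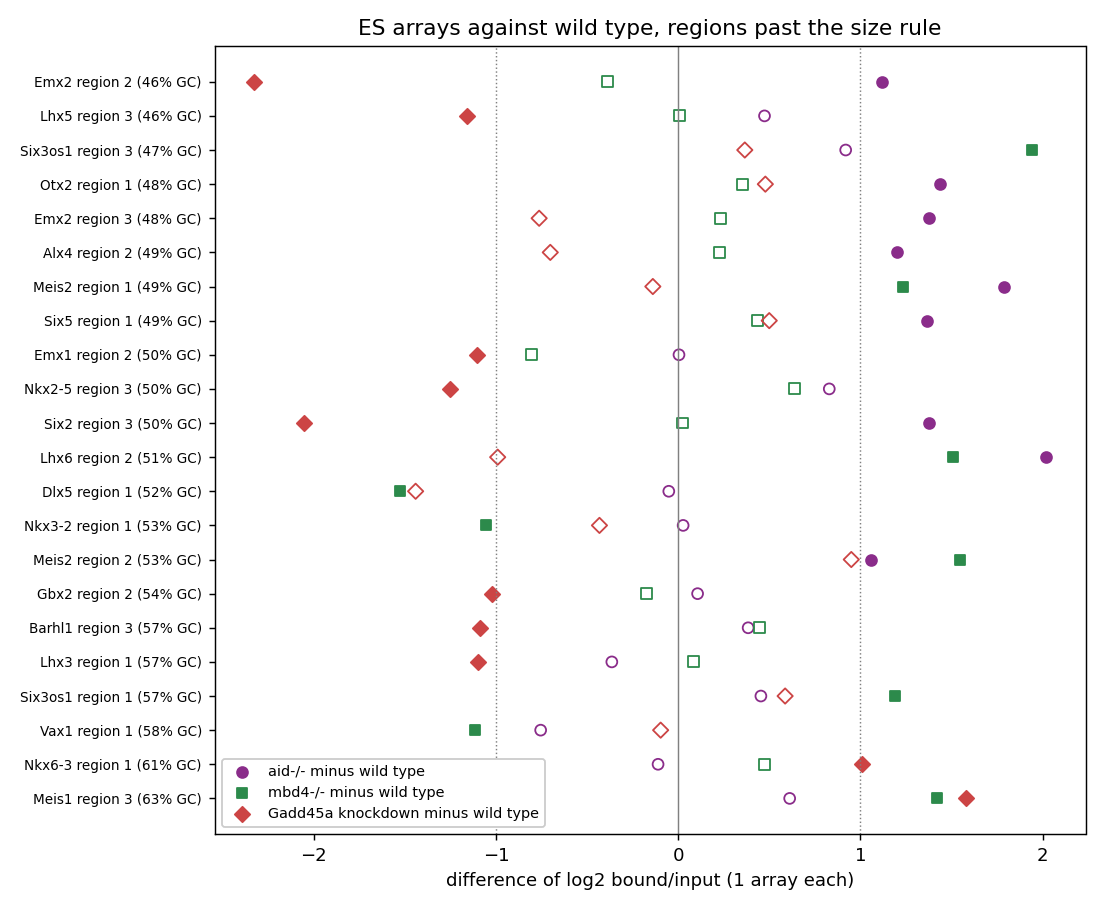
Difference of each altered ES array from the wild-type array (horizontal axis, log2) for 22 of the 24 member regions listed in at least 1 of the 3 comparisons, ordered by GC content of their probes from low at the top; filled symbols are listed, open ones are not, and dotted lines mark −1 and 1. The 9 filled aid-/- symbols all lie to the right, and 8 of 10 filled knock down symbols lie to the left.

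The genotypes aid-/- and mbd4-/- were compared over ES cells, liver and spleen with tissue as a block. No member was called by limma, nor was any region of the array. At an unadjusted p under 0.05, 28 members were higher in aid-/- and 1 lower, 20.4% and 0.730% of the members, against 5.33% and 5.4% of all regions. Among them were Dlx5 region 1 (difference 1.11), Evx2 region 2 (1.11) and Otx2 region 1 (1.01), each with an adjusted p of 0.464 by limma. In liver alone 5 members passed the rule of size as higher in aid-/- and 1 as lower, against 1.34% and 7.65% of all regions, and in spleen 2 and 0, against 0.281% and 7.59%. In ES cells the counts were 8 and 1, against 2.8% and 1.83%.

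With liver and spleen alone, limma called 8 members higher in aid-/- than in mbd4-/- and 0 lower, against 0.607% and 7.52% of all regions. Among them were Otx2 region 1, Dlx5 region 1, Evx2 region 3, Evx2 region 2, Alx1 region 1, Barhl1 region 1 and Lhx5 region 1. Otx2 region 1 had levels of 0.11 in aid-/- liver and 0.53 in aid-/- spleen, against −1.01 in mbd4-/- liver and −0.29 in mbd4-/- spleen. All 8 averaged below 0 over the 2 mbd4-/- tissue arrays, whose plateau was 3.98 and 3.63, against 2.25 and 2.28 on the aid-/- arrays. After the 4 arrays were scaled to one plateau no member was called, nor any of the 13183 regions. The mbd4-/- tissue arrays shared a slide and the aid-/- tissue arrays lay on others. Scan day, slide and source of the DNA cannot be told apart from genotype in these tissues.

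Other gene lists, written with earlier results of these data known, are given as counts. Of 63 Hox cluster regions 11 were higher and 1 lower without overlap in liver and spleen against ES cells (17.5% and 1.59%), where 7.77% and 4.01% of all regions were. On at least 1 array 12 Hox regions (19.0%) and 8 of the 137 members (5.84%) reached 50% of the plateau, against 16.3% of all regions. Of 128 regions of other homeobox genes and of Pax genes, 10 were higher and 13 lower without overlap (7.81% and 10.2%). On at least 1 array 21 of the 128 reached 50% of the plateau (16.4%). Of 34 regions of cofactor genes, such as Pbx, Tle and Eya, 2 were higher and 1 lower (5.88% and 2.94%). Of 31 regions of Polycomb genes, which encode the silencing complexes of many homeobox promoters, 3 were higher and 1 lower (9.68% and 3.23%). Median differences of liver and spleen minus ES were 0.02 for the members, 0.24 for Hox regions and −0.01 for other homeobox and Pax regions. They were 0.10 for cofactors, 0.06 for Polycomb genes and 0.08 for all regions. Whether members and Hox regions differ was not tested.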

How the data were processed

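Genomic DNA of 8 samples was measured on 8 two-colour arrays. The deposited scanner files hold intensity values, per the file headers processed by Agilent Feature Extraction (background-subtracted, dye-normalised), and a log10 ratio that was used only to check direction. The deposited value table holds a score per probe whose log base and scale are unknown. It correlated with the scanner log ratio at r = 0.898 to 0.972, had medians of −0.21 to −0.03 and was multiplied by 1.20 as an alternative. Positions are mm9, per the file headers. The step from scanner file to value table is not stated in the labels or headers.

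From processed signals, log2 bound over input was centred on each array's median. Left out were 5950 controls, 326 unplaced probes, 132 outliers and 7174 probes with input not above background on some array. Of 1033 member probes 927 passed. Gene names differ between 2 files from different releases of the array design and agree for 82.2% of probes. The later release was used, because among 15275 probes inside a RefSeq promoter window it alone named that gene for 1564 and the earlier alone for 155. Older-release names are an alternative. Regions were compared with limma 3.58.1 (R 4.3.3), Benjamini-Hochberg adjusted over all regions, and the methods were tested on simulated data. In the simulation for limma the noise was independent between arrays. It held no differences of plateau, GC or scan day between arrays, so it cannot show how these affect the calls. One array per group limits the precision, and p-values measure the spread between these arrays. Dyes were never swapped, so any dye effect of a probe is part of every level and is not measured by the p-values. Alternatives were normexp background correction (on median signals, since mean signals are not in all 8 files), value table, centring, plateau, GC, filters, gene names, left-out arrays and batches. Named regions followed a rule of called regions, size-rule regions, 10 highest and 5 lowest levels and widest ES range. Members, lists and rules were chosen with earlier results of these data known. A few items are not reported here, so some named lists are shorter than their counts.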

Additional observations from a re-analysis of the deposited data

Results flagged for a closer look

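Meis2 region 3 and Six3os1 region 3 are given again because the difference between aid-/- and mbd4-/- ran in opposite directions in different tissues, on 1 array each. At Meis2 region 3, aid-/- minus mbd4-/- was −1.22 in liver, 0.83 in spleen and 0.59 in ES cells. At Six3os1 region 3 it was −1.02 in ES cells, 0.44 in liver and 0.62 in spleen. The difference between tissues was not tested. The plateau of the aid-/- arrays was lower than that of the mbd4-/- arrays in liver and spleen (2.25 and 2.28 against 3.98 and 3.63) and similar in ES cells (4.46 against 4.26), and its part in these values was not tested.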

How the results depend on the processing

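The 0 members called for liver and spleen against ES cells became 1 with GC correction, 3 with the deposited values, 4 with 1 plateau, 18 with the aid-/- and mbd4-/- arrays alone and genotype as a block, and 0 to 8 when 1 array was left out (8 without the Gadd45a knock down). Liver against spleen stayed at 0 under every alternative run. For aid-/- against mbd4-/-, leaving out 1 array gave 0 to 8. The 8 came without either ES array, and the Feature Extraction software version as a block also gave 8. All of these are the one fit of liver and spleen alone (0.607% of all regions higher and 7.52% lower). The fit without the tissue block (no replicate block) gave 0. Slide and scan day could not be fitted there. Deposited values hold 101 member regions and the setting of 5 or more probes 91, and shares of all regions listed in either direction follow in parentheses. In ES aid-/- against wild type the 11 listed members (10.91%) became 2 with the deposited values (4.54%), 18 centred on the low mode (13.8%), 4 with GC correction (8.72%), 0 with normexp background (2.03%) and 3 with 5 or more probes (7.38%). In ES mbd4-/- the 10 (10.2%) became 4 with the deposited values (4.89%), 6 with 1 plateau (4.07%), 0 with normexp (1.32%) and 3 with 5 or more probes (7.23%). In the knock down the 11 (12.9%) became 18 with 1 plateau (16.9%), 3 with normexp (6.21%), 19 of 143 regions without the filter on dim probes (12.9%) and 6 with 5 or more probes (9.61%). The share of members at 50% of the plateau moved to 0% (deposited values) and 0.730% (normexp) in ES aid-/-, 0% (normexp) in ES mbd4-/-, 5.49% (5 or more probes) in the knock down, 0% (deposited values, 5 or more probes) in aid-/- liver, 0% (5 or more probes) in mbd4-/- liver and 0% (normexp, 5 or more probes) in mbd4-/- spleen. In 3 cases a single difference changed sign: Alx4 region 2 in ES aid-/- to −0.0782 with deposited values, and Emx1 region 2 to 0.27 and Lhx5 region 3 to 0.27 in the knock down with normexp. Apart from the alternatives that leave out arrays or regions, the cause of these changes was not tested.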
